A study of Mus musculus with 5 samples.

Results

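The 35 collagen genes described here were chosen by name. Every gene symbol made of Col, a type number, the letter a and a chain number was taken from either of the 2 deposited count tables, which gave 43 of 22980 genes, and a gene was kept where it had at least 20 counts over all barcodes of the 5 libraries. Just inside that limit were Col8a2 with 29 counts and Col9a1 with 36, and just outside it Col11a2 with 16 and Col6a4 with 15. The kept genes were 9 fibrillar, 8 basement membrane, 3 beaded filament, 6 fibril-associated, 4 transmembrane and 2 short-chain network collagens, and 3 others (Col7a1, Col26a1 and Col28a1).

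The study set single nuclei against single cells of adult mouse kidney, and healthy kidney against a scarring one. Healthy kidney gave 1 Drop-seq library of whole cells, from a C57BL/6 mouse by enzymatic digestion, and 3 libraries of detergent-isolated nuclei, of which 1 each was made with the 10x droplet system, with DroNc-seq and with sNucDrop-seq. The diseased kidney gave 1 nucleus library, also by 10x, on day 14 after UUO (unilateral ureteral obstruction, an operation that blocks the outflow of 1 kidney and scars it). No genotype, transgene, drug or age is given in the labels for any group, and the strain is named only in the protocol for cells.

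The libraries held between 2947137 and 7411036 UMIs (counted molecules) in 2084 to 6147 barcodes, with medians of 1055 to 1630 UMIs per barcode. Each group had 1 library, so nothing was tested, and every interval below is an exact 95% interval that covers counting error only. Levels are CPM, counts per 1000000 UMIs of the barcodes summed. Such levels of different genes were not scaled for gene length, so no order between genes is read from them. Healthy 10x listed 24 of the 35 members and DroNc-seq 31, and the rare genes of both libraries carry signs of a gene filter, so a member at 0 there is described as listed at 0, without a fold. The female transcript Xist stood at 1321 CPM in healthy 10x and 0.405 in UUO, and Y-linked transcripts at 3.73 and 618 CPM, so the 2 10x libraries differ in sex-linked transcripts as well as in the operation, and the effects of these cannot be told apart. sNucDrop-seq had the UUO pattern, with Xist at 0 and Y-linked transcripts at 446 CPM, and DroNc-seq the healthy 10x pattern. Healthy 10x and UUO shared 23 barcode sequences.

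Collagens are triple-helical matrix proteins. Fibrillar types, such as type I (Col1a1 and Col1a2) and type III (Col3a1), form the tensile fibres that build up in renal scars and are made mainly by fibroblasts and pericytes. Type IV chains form the sheet of every basement membrane. Col4a1 and Col4a2 products join in most of these membranes, while the Col4a3, Col4a4 and Col4a5 products join in the glomerular filter and parts of the tubule, where their loss causes Alport syndrome. Types XV and XVIII (Col15a1 and Col18a1) are basement membrane zone collagens that carry heparan or chondroitin sulfate chains, and a fragment of the type XVIII chain is endostatin, an inhibitor of vessel growth.

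The type IV genes lie as head-to-head pairs on 3 chromosomes of GRCm38 (GENCODE vM21). Col4a1 (chr8:11198423-11312826, minus strand) and Col4a2 (chr8:11312805-11449287, plus strand) overlap at their starts, and Col4a6 (chrX:141165403-141474076) starts 1308 bases from Col4a5 (chrX:141475385-141689234). Col4a4 (chr1:82448423-82586849, minus strand) and Col4a3 (chr1:82586921-82722059, plus strand) are 71 bases apart. Their gap is printed because these neighbours were both lower in UUO proximal tubule. With it stand the 250 bases before the RefSeq starts (GRCm38.p6) of a fibrillar gene of the fibroblast label, Col3a1, of a fibrillar gene of healthy tubule, Col27a1, and of the member with the lowest UUO level relative to healthy 10x, Col25a1. Each is written 5′ to 3′ on its gene's strand, the gap on that of Col4a4, and capitals mark a match on either strand to the CCAAT box, to the GC box core GGGCGG or to the TATA box form TATAAA.
Col4a4 to Col4a3 gap, chr1:82586850-82586920: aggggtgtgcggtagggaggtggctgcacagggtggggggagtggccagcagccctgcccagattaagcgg
Col3a1, chr1:45311288-45311537, plus strand: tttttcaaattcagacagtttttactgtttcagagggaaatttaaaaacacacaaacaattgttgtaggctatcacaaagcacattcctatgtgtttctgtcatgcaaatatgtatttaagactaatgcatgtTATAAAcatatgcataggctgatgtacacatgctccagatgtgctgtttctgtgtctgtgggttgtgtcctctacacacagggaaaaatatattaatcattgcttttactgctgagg
Col27a1, chr4:63215162-63215411, plus strand: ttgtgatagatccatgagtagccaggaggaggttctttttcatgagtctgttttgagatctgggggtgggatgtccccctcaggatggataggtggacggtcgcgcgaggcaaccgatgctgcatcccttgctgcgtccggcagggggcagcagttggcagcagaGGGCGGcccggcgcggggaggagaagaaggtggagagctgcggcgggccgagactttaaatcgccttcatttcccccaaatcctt
Col25a1, chr3:130180595-130180844, plus strand: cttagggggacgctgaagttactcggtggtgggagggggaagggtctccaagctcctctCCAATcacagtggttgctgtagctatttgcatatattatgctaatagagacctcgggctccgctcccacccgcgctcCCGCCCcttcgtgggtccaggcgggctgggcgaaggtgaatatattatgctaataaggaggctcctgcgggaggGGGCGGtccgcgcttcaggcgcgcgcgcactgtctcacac

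None of these motifs was in the gap between Col4a4 and Col4a3. The Col3a1 window held 1 TATAAA, the Col27a1 window 1 GGGCGG, and the Col25a1 window 1 CCAAT and 2 GGGCGG. RefSeq windows were matched for 29 members, with 31 starts, of which 38.7% held CCAAT, 54.8% GGGCGG and 9.68% TATAAA. Over all 32851 windows of that length in the RefSeq table the shares were 33.9%, 32.7% and 12.4%. A match is a run of letters and not a shown binding site.

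The labels were checked against marker genes before use. In UUO the label Fib.1 (330 nuclei) held all 12 fibroblast and mural markers at a summed 1181 CPM, against 195 CPM over all UUO nuclei. The label Fib.2 (68 nuclei) held 103 CPM of that list, with Pdgfra, Dcn and Lum among 7 members at 0, so the data go against a fibroblast reading of its name and it is called by its label only. JGA (46 nuclei), an abbreviation that the labels do not spell out, held 1064 CPM, also with Pdgfra, Dcn and Lum at 0. UUO podocytes and endothelium were highest in their own lists, at 54410 and 5383 CPM. Tubule markers were far lower in UUO than in healthy 10x: proximal tubule markers stood at 397 to 4252 CPM in the 5 UUO proximal tubule labels and at 8335 and 18920 CPM in the healthy ones. Principal cell markers stood at 316 CPM in UUO principal cells against 6275 in healthy, and at 318 CPM in UUO connecting tubule, so that UUO label is not set apart by its own markers.

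The fibrillar collagens of UUO kidney were led by Fib.1 nuclei. The labels were made from these same nuclei, so levels of Fib.1 beside other labels are a description and no test. In Fib.1, Col3a1 (type III) stood at 402 CPM (331 to 484, 112 counts), Col1a2 (type I) at 287 CPM (228 to 357, 80 counts) and Col1a1 (type I) at 144 CPM (103 to 196, 40 counts). Col5a2, whose product joins type I fibrils and sets their width, was at 406 CPM there (334 to 488, 113 counts). Each of these 4 members was higher in Fib.1 than in every other UUO label.

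In the other 16 UUO labels Col3a1 ranged from 8.34 CPM in the descending and thin ascending limb label to 95.5 CPM (35 to 208, 6 counts) in macrophages, and was at 47.3 CPM in endothelium and 21.9 CPM in proximal tubule S2. Its Fib.1 interval overlapped that of no other label. Col1a2 ranged from 0 counts in Fib.2, JGA and the Prolif. PT label to 61.1 CPM (22.4 to 133) in podocytes. Col1a1 came next in JGA at 42.6 CPM, from 2 counts. Col5a2 had a further high label, JGA, at 256 CPM from 12 counts (132 to 446, which overlaps Fib.1), followed by endothelium at 74.8 CPM.

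Summed, Col1a1, Col1a2 and Col3a1 stood at 833 CPM (729 to 947) in Fib.1 and between 9.23 and 143 CPM in the other 16 labels. Fib.1 held 3.76% of UUO UMIs and 41.7% (37.5 to 45.9) of these 557 counts, and of all 1210 fibrillar counts it held 30.8% (28.2 to 33.5). The UUO proximal tubule class held 370 fibrillar counts, at 102 CPM, beside 373 in Fib.1. Outside Fib.1 the counts of Col1a1, Col1a2 and Col3a1 were spread over the labels at low levels. Col3a1 was seen in 18.8% of Fib.1 nuclei (14.7 to 23.4, median 514.5 UMIs) and in 3.21% of proximal tubule S2 nuclei (median 1372 UMIs). Thinning to 500 UMIs kept only nuclei with at least that many, 174 of 330 in Fib.1 and 1381 of 1401 in S2. Among these the shares were 17.8% and 1.16%. In make-up, Col1a1 gave 17.2% (12.6 to 22.7) of the sum in Fib.1 and 26.2% (21.5 to 31.3) outside, with overlapping intervals. Col1a2 gave 34.5% in Fib.1 and 25.5% outside, and Col3a1 48.3% in both. In UUO proximal tubule Col1a1, Col1a2 and Col3a1 gave 20.7%, 21.5% and 57.8%. Free RNA from broken cells can give a low level in all labels, and its part in the tubule values was not tested.

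The other fibrillar members differed in their highest label. Col27a1, a fibrillar chain known from cartilage, was highest in the Prolif. PT label at 134 CPM (29 counts) and stood at 10.8 CPM in Fib.1 (3 counts). Col24a1 was at 139 CPM in intercalated cells (37 of its 58 UUO counts), against at most 21.3 CPM (1 count, JGA) in any other label. Col5a1 and Col5a3 were highest in Fib.1 at 28.7 CPM (8 counts) and 46.7 CPM (13 counts). Col11a1 had 11 UUO counts.

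Fibrillar and basement membrane collagens were then set against each other. Fibrillar counts made up 34.4% (31.6 to 37.3) of the counts of both families in Fib.1, 16.7% (9.18 to 26.8) in macrophages, 12.1% (7.45 to 18.3) in JGA, 9.52% (7.2 to 12.3) in endothelium and 6.43% (3.97 to 9.76) in podocytes. The tubule labels ran from 2.22% (1.32 to 3.49) in the descending and thin ascending limb label to 12.3% (9.81 to 15.2) in distal convoluted tubule. Fib.2, at 3.48% (1.51 to 6.74), lay with the tubule labels. Fib.1 had the largest fibrillar share of the UUO labels, and its interval overlapped that of no other UUO label, while basement membrane genes still gave most of its counts. Since the labels were made from these nuclei, that order is no test of where fibrillar transcripts arise. In healthy nuclei the MC label, an abbreviation that is not spelled out, had 29.1% (24.6 to 34.0) in sNucDrop-seq and 29.7% (26.5 to 33.1) in DroNc-seq, which overlap Fib.1, and 1 fibrillar beside 42 basement membrane counts in healthy 10x. Over all nuclei the share was 8.33% in UUO and 6.97%, 12.7% and 16.0% in healthy 10x, DroNc-seq and sNucDrop-seq. With type IV genes alone as the basement membrane family, the fibrillar share was 64.8% (60.7 to 68.7) in Fib.1 and 17.2% (13.1 to 21.9) in endothelium, a shift of over 1.5 times in both.

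**Figure D1:**
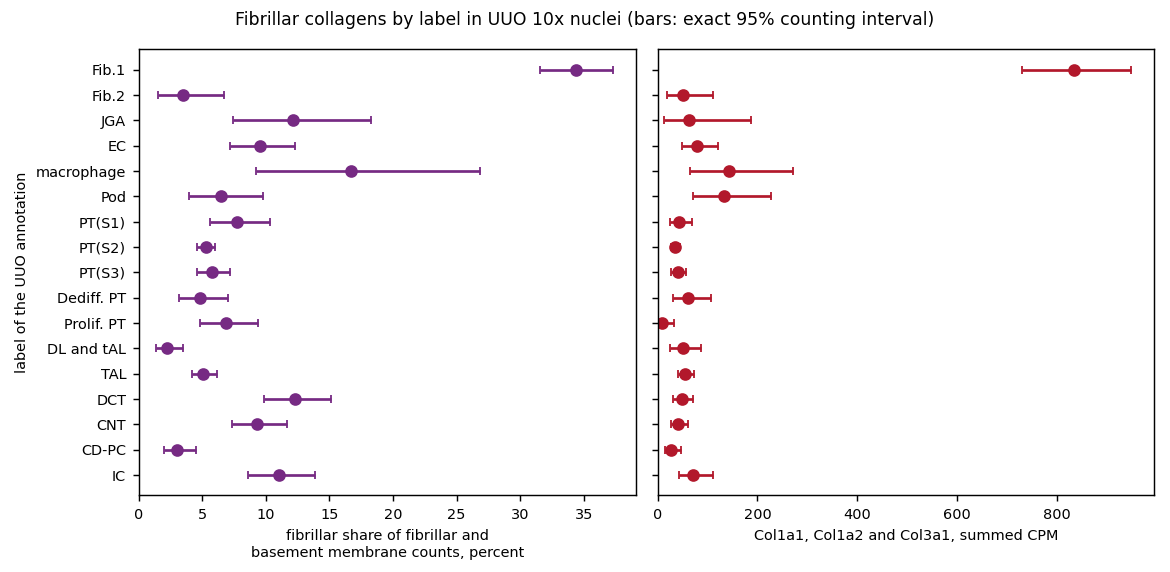
Fibrillar collagens by label in UUO 10x nuclei. The left panel gives fibrillar counts as a percentage of fibrillar plus basement membrane counts, and the right panel the summed CPM of Col1a1, Col1a2 and Col3a1, each point a label with its exact 95% counting interval. Fib.1 is highest in both panels, at 34.4% and 833 CPM, among labels made from these same nuclei.

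No label of the healthy annotation is named for fibroblasts, and type I and III transcripts of healthy kidney were seen in the label MC. The healthy label MC held the fibroblast and mural markers at 1841 CPM in sNucDrop-seq (147 nuclei) and at 2816 CPM in DroNc-seq (146 nuclei). Col1a2 stood there at 310 CPM (50 of 91 counts of its library) and 298 CPM (78 of 134), and Col3a1 at 86.8 CPM (14 of 36) and 267 CPM (70 of 119), while sNucDrop-seq macrophages had 95.7 CPM of Col3a1 from 6 counts. Col1a1 had 0 counts there in sNucDrop-seq and 7 in DroNc-seq. Healthy 10x had 16 MC nuclei, with 1 of the 13 Col1a2 counts of that library, and listed Col1a1, Col3a1, Col5a1 and Col5a3 at 0. Fib.1 and MC come from different annotations and platforms, so their levels stand side by side and no fold is given.

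Over all nuclei, the members of the fibrillar family went different ways between UUO and healthy kidney. Col1a1 stood at 16.9 CPM in UUO (125 counts), against a listed 0 in healthy 10x, 2.05 CPM in DroNc-seq and 1.08 in sNucDrop-seq. Col3a1 stood at 36.3 CPM in UUO against a listed 0, 20.3 and 7.78 CPM in the same order. Col1a2 was at 22.0 CPM in UUO, 4.99-fold the healthy 10x level of 4.41 (log2 ratio 2.32, 1.5 to 3.26), but sNucDrop-seq had 19.7 and DroNc-seq 22.9 CPM. UUO was therefore above all 3 healthy nucleus libraries for Col1a1 and Col3a1. For Col1a2 it was above healthy 10x, while sNucDrop-seq (91 counts) and DroNc-seq (134 counts) stood near the UUO level (163 counts).

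Col27a1 went the other way, at 32.1 CPM in UUO against 113, 290 and 192 CPM in healthy 10x, sNucDrop-seq and DroNc-seq (log2 ratio to healthy 10x -1.82, -2.06 to -1.57). Healthy 10x held it chiefly in connecting tubule, at 312 CPM, and in the proximal tubule S1-S2 label, at 240 CPM. In the proximal tubule class as a whole it was at 145 CPM in healthy 10x and 43.5 in UUO (log2 ratio -1.74, -2.06 to -1.42), in connecting tubule at 312 and 50.8, and in principal cells at 193 and 13.5. Col5a2 was at 37.5 CPM in UUO and 38.0 in healthy 10x, with a different spread over labels. It was lower in UUO ascending limb, at 44.1 against 98.5 CPM (log2 ratio -1.16, -1.78 to -0.55), and in distal convoluted tubule, at 55.6 against 116 CPM, whereas Fib.1 held 40.6% (34.8 to 46.7) of its UUO counts.

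The fibrillar sum joined these opposite parts, with 163 CPM in UUO and 176 in healthy 10x (log2 ratio -0.11, -0.26 to 0.04). Its sign depended on the scaling and the members: with TMM scaling, which centres the typical gene and raises every log2 ratio of all nuclei by 0.17, it was 0.0596, without Col27a1 it was 1.06 (0.83 to 1.29), and with the members listed in both libraries alone it was -0.80 (-0.97 to -0.64). An all-nuclei level depends on the mix of labels, so more nuclei of a type and more transcript per nucleus cannot be told apart in it.

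Of the 35 members, 24 were measured between UUO and healthy 10x, that is listed in both with at least 20 counts together, and the 11 others were listed at 0 in healthy 10x. At least 2-fold higher in UUO were 7 of the 24, beside 10.2% of all 12831 genes measured, and at least 2-fold lower were 11, beside 20.5%. The median log2 ratio was -0.37 over the members and -0.16 over all genes. A member in this count had to be listed in healthy 10x. Left out were Col1a1, Col3a1, Col5a1, Col5a3, Col6a3, Col6a5, Col6a6, Col8a2, Col9a1, Col17a1 and Col28a1. Of these, Col1a1 and Col3a1 had a higher CPM in UUO than in both sNucDrop-seq and DroNc-seq. Col5a1, Col6a3, Col6a6, Col9a1, Col17a1 and Col28a1 had a lower CPM in UUO than in both, several from few counts. The others were listed at 0 in DroNc-seq. The 7 higher members were Col1a2, Col12a1, Col14a1, Col8a1, Col18a1, Col15a1 and Col4a1. The 11 lower were Col25a1, Col26a1, Col27a1, Col4a4, Col16a1, Col11a1, Col23a1, Col13a1, Col4a3, Col20a1 and Col24a1. With DroNc-seq in place of healthy 10x, 30 members were measured, of which 4 were higher, beside 17.2% of 13876 genes, and 10 lower, beside 29.1%.

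**Figure D2:**
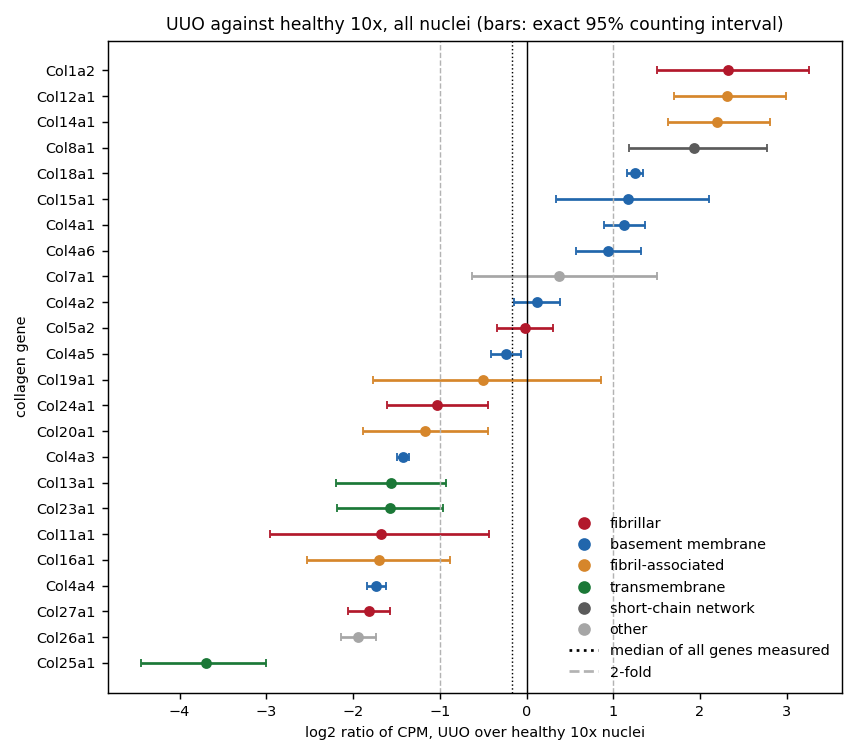
Log2 ratio of CPM, UUO over healthy 10x, all nuclei, for the 24 measured members, coloured by family, with exact 95% counting intervals. The ratios run from -3.69 for Col25a1 to 2.32 for Col1a2, and each family with more than 1 measured member except the transmembrane genes has members on both sides of 0.

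The basement membrane family was the larger by counts, and its members parted. In proximal tubule, Col4a3 stood at 324 CPM in UUO and 1494 in healthy 10x (log2 ratio -2.20, -2.31 to -2.10), and Col4a4 at 126 and 396 CPM (log2 ratio -1.65, -1.84 to -1.46). Col4a5, on the X chromosome, was at 96.8 and 84.2 CPM (log2 ratio 0.20, -0.12 to 0.54). Col4a1 was at 161 CPM in UUO and 90.1 in healthy 10x (log2 ratio 0.84, 0.54 to 1.15), while its partner Col4a2 was at 58.6 and 85.0 CPM (log2 ratio -0.54, -0.89 to -0.18). The 2 genes of each head-to-head pair on chromosomes 1 and 8 were therefore alike in direction for Col4a3 and Col4a4 and opposite for Col4a1 and Col4a2.

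Col4a3 and Col4a4 were lower in UUO in some classes and not in others. In connecting tubule Col4a3 was at 228 against 1012 CPM and Col4a4 at 110 against 945 CPM, and in distal convoluted tubule they were at 248 against 723 and 130 against 637 CPM. In principal cells Col4a3 was at 510 against 859 CPM and Col4a4 at 208 against 798 CPM. Proximal tubule markers, which none of these cells should express, were at 76.2, 85.2 and 92.5 CPM in these 3 UUO classes in that order and at 1012, 842 and 1954 CPM in the healthy ones, and their part in the differences was not tested. In ascending limb the Col4a3 levels were 1098 and 1166 CPM (log2 ratio -0.09, -0.23 to 0.05) and in descending limb 1306 and 1458 CPM (log2 ratio -0.16, -0.41 to 0.10), while Col4a4 was lower in both, with log2 ratios of -0.91 (-1.14 to -0.68) and -0.62 (-1.03 to -0.22). In podocytes, which make these chains for the glomerular filter, Col4a3 was at 1701 CPM in UUO and 1365 in healthy 10x (log2 ratio 0.32, -0.01 to 0.64) and Col4a4 at 601 and 714 CPM (log2 ratio -0.25, -0.76 to 0.25). Neither podocyte interval left 0 out, so a change was not detectable at 87 and 53 nuclei. Over all nuclei Col4a3 was at 444 CPM in UUO and 1187, 1071 and 1078 CPM in healthy 10x, sNucDrop-seq and DroNc-seq, and Col4a4 at 161 against 533, 557 and 452 CPM.

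The balance of the chains differed accordingly. Col4a1 and Col4a2 gave 8.15% (7.12 to 9.28) of the counts of Col4a1 to Col4a5 in healthy 10x proximal tubule and 28.7% (27.0 to 30.4) in UUO. Within UUO the share was 25.7% in S1, 29.3% in S2, 24.2% in S3, 38.5% (30.8 to 46.6) in Prolif. PT and 42.9% (33.8 to 52.3) in Dediff. PT, the last 2 being the labels for proliferating and dedifferentiated proximal tubule. Endothelium of healthy 10x had a share of 21.1% (11.4 to 33.9, from 12 counts of Col4a1 and Col4a2 beside 45 of the others), and that of UUO 60.5% (54.0 to 66.7). Podocytes had 1.92% (0.63 to 4.43) and 2.31% (0.85 to 4.96), and ascending limb 2.44% and 4.69%. Principal cells went the other way, from 8.37% (5.12 to 12.8) in healthy 10x to 4.87% (2.997 to 7.42) in UUO, with overlapping intervals. sNucDrop-seq and DroNc-seq proximal tubule stood at 6.6% and 7.99%. Their endothelium stood at 18.1% (13.2 to 23.95) and 36.95% (30.3 to 43.98), so the healthy libraries differed among themselves there.

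**Figure D3:**
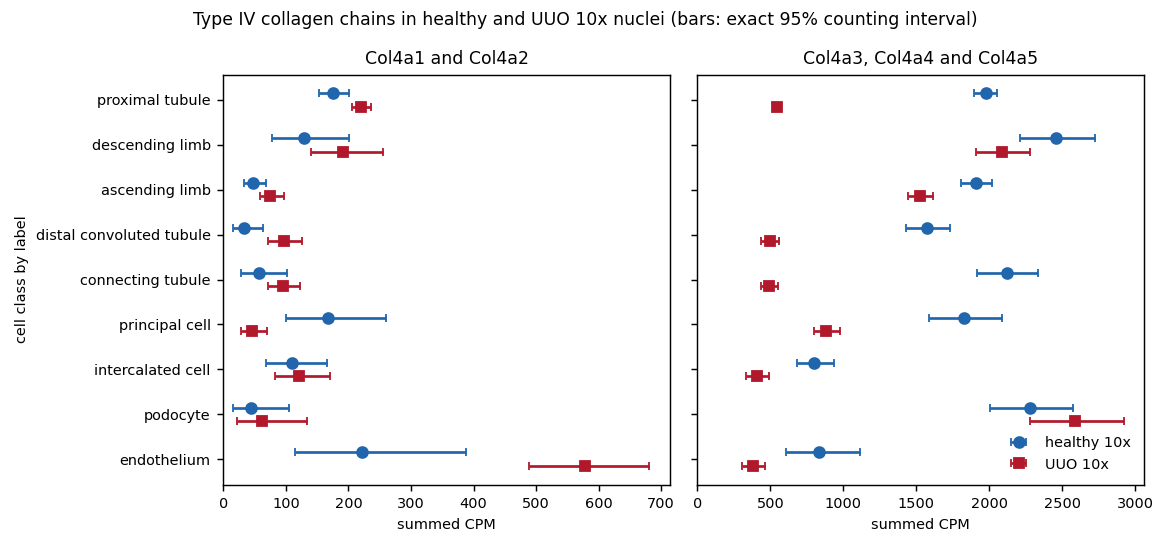
Type IV collagen chains by cell class in healthy (circles) and UUO (squares) 10x nuclei, as summed CPM of Col4a1 and Col4a2 on the left and of Col4a3, Col4a4 and Col4a5 on the right, with exact 95% counting intervals. Proximal tubule stood at 1974 and 547 CPM on the right and podocytes stood at 2276 and 2587 CPM.

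Endothelium was the UUO label with the highest Col4a1, at 335 CPM (85 counts), and Col4a2, at 244 CPM (62 counts). Next came Fib.2 and JGA for Col4a1, at 308.5 and 276.7 CPM, and Fib.2 and Fib.1 for Col4a2, at 188.5 and 150.8 CPM. Their counting intervals overlap that of endothelium. Healthy 10x endothelium had Col4a1 at 129 and Col4a2 at 92.4 CPM from 7 and 5 counts, which gave log2 ratios of 1.37 (0.27 to 2.73) and 1.40 (0.10 to 3.08). Its Col4a4 went from 370 to 82.7 CPM (log2 ratio -2.16, -3.12 to -1.20). The 46 healthy 10x endothelial nuclei also held ascending limb markers at 4766 CPM, podocyte markers at 3843 CPM and proximal tubule markers at 1737 CPM, against 150, 819 and 165 CPM in the 326 UUO nuclei. The part of these transcripts of other cell types in the Col4a4 value, and in the chain share of healthy 10x endothelium above, was not tested. The basement membrane sum of endothelium, at 1945 against 1386 CPM (log2 ratio 0.49, 0.14 to 0.86), turned to -0.15 (-0.56 to 0.28) without Col18a1.

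Col4a6, whose product joins that of Col4a5 in Bowman's capsule and some tubules, was at 46.8 CPM in UUO and 24.4 in healthy 10x (log2 ratio 0.94, 0.57 to 1.33), and at 14.3 and 23.7 CPM in sNucDrop-seq and DroNc-seq. It was higher in UUO in connecting tubule (64.3 against 10.4 CPM, the latter from 2 counts), in descending limb (134 against 40.5 CPM) and in distal convoluted tubule (64.8 against 26.1 CPM). Fib.2 had the highest UUO level, 180 CPM from 21 counts, next to 308 CPM of Col4a1 and 188 CPM of Col4a2, while its counts of Col1a1, Col1a2 and Col3a1 were 4, 0 and 2. Col15a1 was at 169 CPM (124 to 224, 47 of 79 counts) in Fib.1 and 27.6 CPM in endothelium. In healthy DroNc-seq the MC label held 41 of its 81 counts, at 157 CPM.

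Col18a1 (chr10:77052178-77166548, minus strand) gave 6129 of the 13314 basement membrane counts of UUO. It stood at 827 CPM in UUO and 348 in healthy 10x (log2 ratio 1.25, 1.16 to 1.35). The other healthy nuclei had 33.7 CPM in sNucDrop-seq and 67.4 in DroNc-seq, so the healthy libraries differed among themselves by 10.3-fold, more than UUO did from healthy 10x, and UUO was above each of them.

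By class, the UUO excess of Col18a1 lay mainly in proximal tubule, with 904 against 163 CPM (log2 ratio 2.48, 2.27 to 2.69), in ascending limb, with 623 against 169 CPM (1.88, 1.58 to 2.19), in endothelium, with 929 against 259 CPM (1.85, 1.07 to 2.74), and in distal convoluted tubule, with 341 against 160 CPM (1.09, 0.60 to 1.60). Connecting tubule stood at 515 and 504 CPM (0.03, -0.30 to 0.38). Intercalated cells, the healthy class with the highest level, were at 1380 in UUO and 1688 CPM in healthy 10x (-0.29, -0.51 to -0.07), and principal cells at 682 and 824 CPM. Within UUO the highest levels were 2235 CPM (1828 to 2706) in JGA, 1876 CPM (1689 to 2079) in Dediff. PT, 1658 CPM (1511 to 1817) in Fib.1 and 1496 CPM (1337 to 1668) in Prolif. PT, of which neighbours overlap in their intervals. The lowest was 173 CPM (101 to 277) in podocytes. Col18a1 was thus seen both in the fibroblast label and in the tubule, in 48.2% of Fib.1 and 72.6% of Dediff. PT nuclei, against 13.8% of podocytes. After thinning to 500 UMIs, in the 174, 117 and 80 nuclei with at least that many, the shares were 42.0%, 51.3% and 10.0%. The gene overlaps Slc19a1, a folate carrier gene on the other strand, and whether counting used strand is not stated in the labels, so reads of the pair may be mixed.

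**Figure D4:**
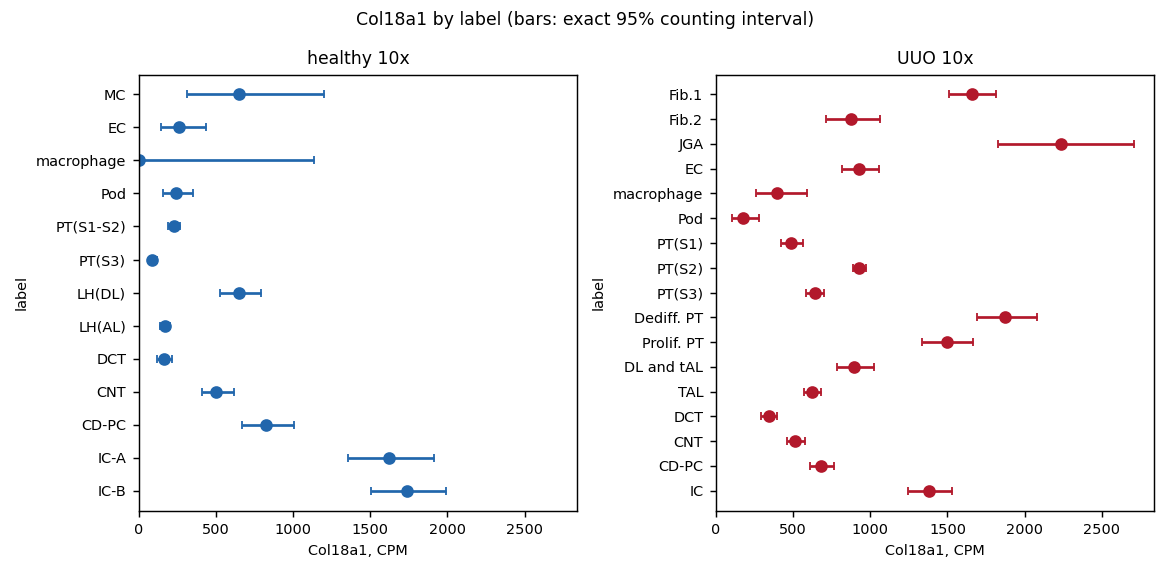
Col18a1 by label in healthy (left) and UUO (right) 10x nuclei, in CPM with exact 95% counting intervals. Healthy levels peak in the 2 intercalated labels at 1620 and 1737 CPM, while in UUO the JGA, Dediff. PT, Fib.1 and Prolif. PT labels reach 1496 CPM or more.

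The basement membrane sum was lower in UUO, at 1797 against 2350 CPM (log2 ratio -0.39, -0.43 to -0.35) over all nuclei and at 1699 against 2330 CPM (-0.46, -0.52 to -0.39) in proximal tubule. Without Col18a1 these log2 ratios were -1.05 (-1.10 to -0.997) and -1.45 (-1.53 to -1.37). Podocytes stood at 2964 and 2624 CPM (0.18, -0.06 to 0.41), where DroNc-seq in place of healthy 10x gave -0.45.

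In proximal tubule 19 members were measured between UUO and healthy 10x, of which 4 were at least 2-fold higher, beside 14.6% of 11395 genes, and 8 at least 2-fold lower, beside 20.7%. In ascending limb 13 were measured, with 4 higher, beside 16.0% of 8292 genes, and 3 lower, beside 17.2%. The proximal tubule members at least 2-fold higher were Col18a1, Col14a1, Col12a1 and Col1a2, the last from 29 and 2 counts.

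Fibril-associated collagens bind to the surface of fibrils, and short-chain collagens form lattices around vessels and in the eye. Col12a1 was at 492 CPM (413 to 581) in Fib.1 and 213 CPM in JGA (10 counts), and Fib.1 held 47.6% of its UUO counts. Over all nuclei Col12a1 was at 38.9 CPM in UUO and 7.80, 6.70 and 13.98 CPM in healthy 10x, sNucDrop-seq and DroNc-seq, so UUO was above each. Col8a1 was at 273 CPM in Fib.1 and 98.4 CPM in UUO endothelium. Its all-nuclei level of 20.6 CPM was above the 5.43 CPM of healthy 10x and below the 54.0 and 125 CPM of sNucDrop-seq and DroNc-seq, where proximal tubule S1-S2 held it at 124 and 219 CPM.

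Col14a1 was spread more evenly: Fib.1 had 154 CPM but only 13.4% (9.84 to 17.6) of its 322 UUO counts, and the median UUO label 42.6 CPM. In proximal tubule it was at 34.9 CPM in UUO and 5.89 in healthy 10x (log2 ratio 2.57, 1.48 to 3.91), and in ascending limb at 44.1 and 9.23 CPM. The healthy MC label held it at 384 CPM in sNucDrop-seq and 661 CPM in DroNc-seq, and the all-nuclei level of DroNc-seq, 47.9 CPM, was above that of UUO, 43.4. Col6a3, a type VI chain of the beaded filaments around cells, was at 93.3 CPM in Fib.1 (26 of 43 UUO counts) and at 174 and 141 CPM in the MC label of sNucDrop-seq and DroNc-seq. Col6a1 and Col6a2, its usual partner chains, had 13 counts each and were not kept. Col6a5 and Col6a6 had 1 and 6 UUO counts.

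**Figure D5:**
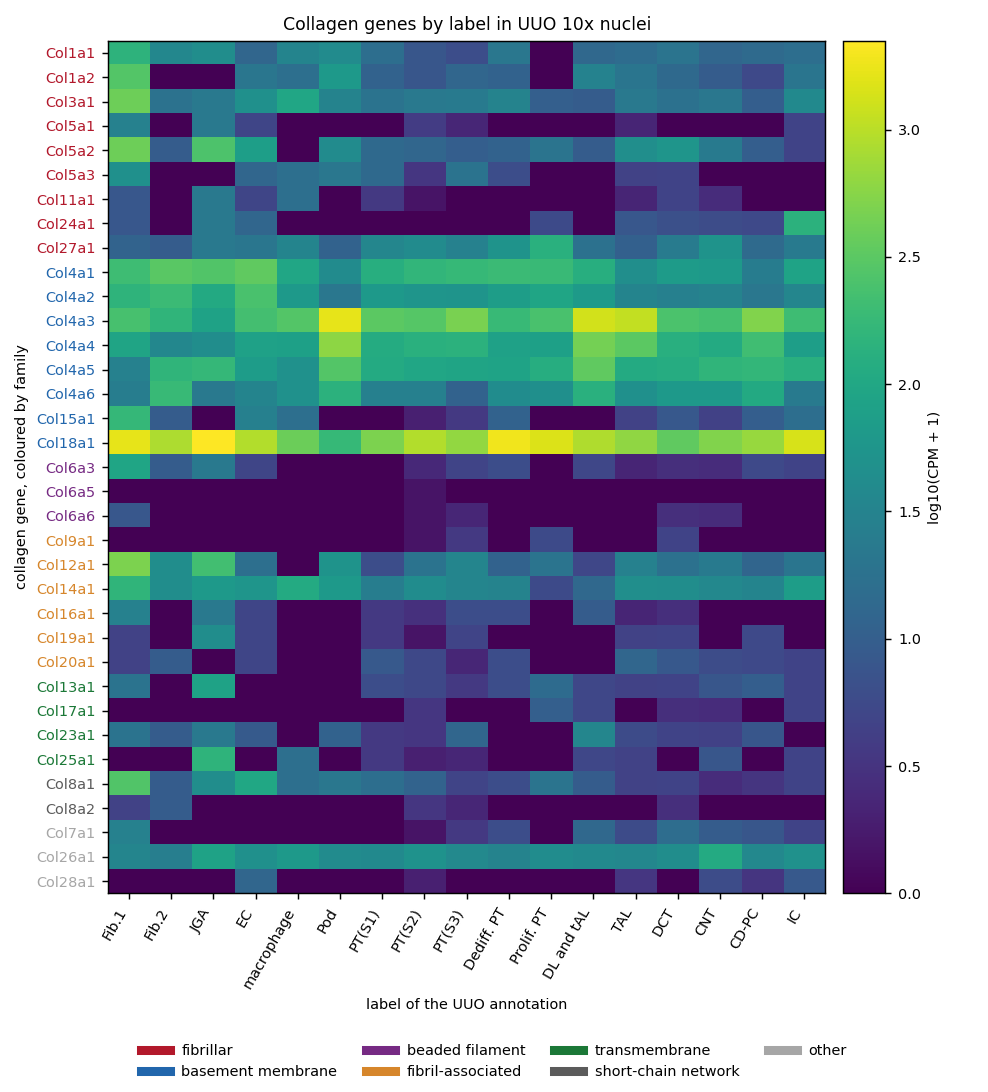
The 35 kept collagen genes in the 17 labels of the UUO annotation, as log10(CPM + 1), with gene names coloured by family. Fib.1 is the brightest label for Col1a1, Col1a2, Col3a1, Col5a2, Col12a1, Col15a1, Col8a1 and Col6a3, whereas the Col18a1 row is bright in every label.

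Transmembrane collagens, which are anchored in the cell membrane, were lower in UUO than in healthy 10x in all 3 measured members. Col23a1 and Col25a1 were below the other healthy nucleus libraries too. Col13a1 was at 5.53 CPM in UUO (41 counts) and 16.3 in healthy 10x. Its UUO level was not below sNucDrop-seq at 5.18 CPM (24 counts) or DroNc-seq at 3.41 CPM (20 counts). Col25a1 (chr3:130131501-130599877) lay mainly in 1 healthy segment: proximal tubule S3 held 88 of its 108 healthy 10x counts, at 161 CPM, and 96 of 151 in DroNc-seq, at 111 CPM. In sNucDrop-seq S3 held 35 of 63 counts at 22.1 CPM, and endothelium was at 32.2 CPM from 5 counts. UUO had 1 count in S3 and 4 in the whole proximal tubule class, at 1.10 against 80.8 CPM in healthy 10x (log2 ratio -6.20, -8.10 to -4.80). The libraries with Xist, healthy 10x and DroNc-seq, had the higher healthy S3 levels of Col25a1. sNucDrop-seq, at 22.1 CPM, had the Y-linked pattern of UUO, so sex-linked differences and the operation cannot be told apart here. The highest UUO level of Col25a1, 149 CPM from 7 counts, was in JGA. Col23a1 was at 4.13 against 21.0 CPM in proximal tubule (log2 ratio -2.35, -3.38 to -1.37) and Col13a1 at 4.68 against 17.7 CPM (-1.92, -2.93 to -0.93). Col16a1, a fibril-associated gene, was also seen chiefly in healthy S3, at 42.2 CPM, and was at 2.75 against 22.7 CPM in the class (-3.05, -4.26 to -1.96). Proximal tubule marker genes were lower in UUO as well, by the values given above, and their part in these differences was not tested. The S3 label held 545273 of 1187607 proximal tubule UMIs in healthy 10x and 773713 of 3635279 in UUO. The part of this segment mix in the Col16a1, Col23a1 and Col13a1 class levels was not tested.

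Col26a1 was highest in principal cells in the 3 healthy nucleus libraries, at 1350 CPM in 10x (154 counts), 532 in DroNc-seq (61) and 194 in sNucDrop-seq (23). UUO principal cells held 36.1 CPM from 16 counts (log2 ratio to healthy 10x -5.22, -6.07 to -4.48), and the highest UUO level was 110 CPM in connecting tubule. Their marker genes were lower too, 316 against 6275 CPM, and the part of this in the Col26a1 value was not tested. Over all nuclei Col26a1 was at 47.4 CPM in UUO, below the 182 CPM of healthy 10x but above the 19.7 and 36.3 CPM of sNucDrop-seq and DroNc-seq, so that direction depends on the healthy library used. Col24a1 in intercalated cells stood at 139 CPM in UUO and 119 in healthy 10x (log2 ratio 0.22, -0.56 to 1.03). In the healthy libraries it was found in the IC-B label, at 187 CPM in 10x and 133 CPM in DroNc-seq (32 of 52 counts), and at 21.9 CPM in sNucDrop-seq from 3 counts.

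Collagen genes took a smaller part of the UMIs of whole cells than of nuclei. All members together stood at 1318 CPM in Drop-seq and between 2686 and 2830 CPM in the 3 healthy nucleus libraries. The proximal tubule comparison of Drop-seq cells with sNucDrop-seq nuclei measured 23 members. Cells were at least 2-fold higher for 4, beside 17.9% of 12838 genes, and at least 2-fold lower for 18, beside 48.7%. The median log2 ratio was -2.42 over the members and -0.93 over all genes. For Col4a3 the cells had 121 CPM and the nuclei 1174 (log2 ratio -3.27, -3.39 to -3.16), and for Col27a1 56.5 and 346 CPM (-2.62, -2.80 to -2.44). All 6 type IV genes were lower in cells.

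Col19a1, a fibril-associated gene, went against this. Drop-seq held 6552 of its 6787 counts, and it stood at 953 CPM there against 2.16 CPM in UUO, 3.05 in healthy 10x, 5.46 in DroNc-seq and 38.4 in sNucDrop-seq. In Drop-seq it was at a similar level in every label, from 644 CPM in MC (7 cells) to 1403 CPM in podocytes (2 cells), and 73.1% of cells had a UMI. It alone gave most of the collagen counts of Drop-seq. The annotation places a gene model, Gm26418, on the same strand within its span, and how reads there were counted is not stated in the labels. Col12a1 was also higher in cells, at 15.8 against 5.21 CPM (log2 ratio 1.60, 0.80 to 2.49), and Col6a5 at 7.80 against 0.69 CPM (46 and 2 counts).

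The enzymes, partners and receptors of collagens were read as 4 lists. Of 17 genes for chain modification and folding, 14 were measured between UUO and healthy 10x over all nuclei, 1 at least 2-fold higher, beside 10.2% of all genes, and 2 lower, beside 20.5%, with a median log2 ratio of -0.06. P3h2, a prolyl 3-hydroxylase of type IV chains, was at 427 CPM in UUO and 1137 in healthy 10x (log2 ratio -1.42, -1.48 to -1.34). Plod2, a lysyl hydroxylase that directs fibril crosslinks, was at 76.5 and 35.3 CPM (1.12, 0.81 to 1.43) and reached 713 CPM in podocytes. Colgalt2, a galactosyltransferase of collagen chains, was at 6.07 and 37.0 CPM. P4ha1, a prolyl 4-hydroxylase subunit, was at 66.7 and 71.6 CPM.

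Of 13 genes for processing and crosslinking, 9 were measured, 3 at least 2-fold higher and 4 lower, beside the same 10.2% and 20.5% of all genes, with a median of -0.56. Pxdn, a peroxidase that crosslinks type IV collagen, was at 32.0 CPM in UUO and 6.11 in healthy 10x (log2 ratio 2.39, 1.70 to 3.17). The procollagen proteinase genes Tll1 and Bmp1 were at 34.8 against 12.6 and 26.3 against 10.9 CPM, and Tll1 was highest in endothelium at 394 CPM. Pcolce, which speeds that cleavage, was at 6.21 and 29.5 CPM. Of 10 genes for breakdown 3 were measured, 0 higher and 1 lower (10.2% and 20.5% of all genes): the inhibitor Timp3 was at 39.7 and 151 CPM. Mrc2, an uptake receptor for collagen, was at 35.8 and 18.3 CPM and stood at 564 CPM in Fib.1, and Mmp14, a membrane-bound collagenase, was at 20.6 CPM in UUO and listed at 0 in healthy 10x. Of 9 receptor genes 8 were measured, 4 at least 2-fold higher and 0 lower, beside 10.2% and 20.5% of all genes, with a median of 0.77. Itga2, a subunit of a collagen-binding integrin, was at 146 and 8.14 CPM (4.16, 3.58 to 4.81), with 510 CPM in the UUO principal cell label. That label was not set apart by its own markers. Itgb1, the shared beta subunit, was at 442 and 95.01 CPM (2.22, 2.04 to 2.40) and lay between 252 and 628 CPM in every UUO label, and Itga1 was at 296 and 209 CPM. The median of all genes in this comparison was -0.16. For these lists UUO was set against healthy 10x alone. Healthy 10x over sNucDrop-seq, all nuclei, had a median log2 ratio of -0.47 for receptors and -0.41 for modification and folding. It was -0.64 for breakdown and 0.25 for processing and crosslinking, beside -0.07 over all genes. Whether the directions hold against the other healthy nuclei was not tested.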

How the data were processed

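The data were UMI counts per gene and barcode in 2 tables deposited by the authors, 1 for the 4 healthy libraries and 1 for UUO. The counts are raw output of zUMIs, per the readme the authors deposited. The aligner STAR 2.5.3a and build mm10 come from the submitters' processing notes. No source used here says how intronic reads or rare genes were treated. Cell labels are from the authors' deposited annotation. There were 0 columns of values of no sample.

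Counts were summed over a label, class or library and scaled to CPM. Intervals are exact Poisson for CPM, Clopper-Pearson for shares and exact conditional on the total for ratios, at 95%. To be measured, a gene had to be listed in both libraries and reach 20 counts together, and the call was 2-fold. No doublet caller was run, and no barcode was left out except in alternatives. Interval code was tested on simulated data. UUO labels were joined to healthy ones as broad classes: 5 proximal tubule labels to 1 class, DL and tAL to descending limb, TAL to ascending limb.

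The members and gene lists were chosen with earlier results of these data known. All kept members may be named. Values by label are given for the 3 members of each family with the most counts in the 10x libraries, and for members at least 4-fold apart, and the same rule chose the pathway genes. Label values of other members were chosen after their values were seen. TMM scaling used edgeR 4.0.16 in R 4.3.3. All else ran in Python 3.11.15 (matplotlib 3.10.9, pandas 2.3.3, scipy 1.17.1, numpy 2.4.6). Alternatives were other scalings, barcode and count minimums, other healthy references and lists without 1 member.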

Additional observations from a re-analysis of the deposited data

Results flagged for a closer look

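Col4a1 was at least 2-fold apart between UUO and healthy 10x in opposite directions in 2 cell classes. Its log2 ratio was 2.20 in distal convoluted tubule (0.72 to 4.15, 37 and 4 counts) and -2.20 in principal cells (-3.50 to -0.92, 11 and 13 counts). The difference between the classes was not tested, since each group had 1 library. The UUO principal cell label was not set apart by its own markers, and healthy principal cells also held proximal tubule markers. The part of this in the principal cell ratio was not tested.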

How the results depend on the processing

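No paired analysis was possible because each group had 1 library. Over the 9 main results, 37 alternative values stayed within the reported counting interval, or within 1.5 times for counts, 28 moved outside it and 2 reversed a ratio whose interval had left 0 out. In all, 6 changed sign. The cause was not tested. TMM scaling raised every log2 ratio by 0.17 over all nuclei, 0.17 in proximal tubule and 0.32 in endothelium.

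The fibrillar log2 ratio of UUO over healthy 10x, -0.11, was 0.0596 with TMM, -0.35 with barcodes of at least 1000 UMIs, 0.17 as a mean of CPM over barcodes, -1.26 against sNucDrop-seq, -0.89 against DroNc-seq, 1.06 without Col27a1 and, chosen after seeing the data, -0.80 with members listed in both libraries. The basement membrane ratio over all nuclei, -0.39, was -0.22 with TMM, -0.19 against sNucDrop-seq, -0.22 against DroNc-seq, -1.05 without Col18a1 and -1.06 with type IV genes alone, which for ratios was chosen after seeing the data. In proximal tubule, -0.46 became -0.28 with TMM, -0.30 against sNucDrop-seq, -0.29 against DroNc-seq, -1.45 without Col18a1, -1.45 with type IV genes alone and, also added later, -0.53 without the Dediff. PT and Prolif. PT labels. In endothelium, 0.49 turned to -0.15 without Col18a1 and -0.17 with type IV genes alone, and its interval took in 0 with barcodes of at least 1000 UMIs (0.38) and without barcodes above 3 times the label's median (0.26). In podocytes, 0.18 became -0.45 against DroNc-seq, and its interval, which had held 0, left it out with TMM (0.24) and without barcodes above 3 times the label's median (0.28). The fibrillar interval likewise left 0 out without those barcodes (-0.24) and with listed zeros at the floor of 11 counts (-0.23). The count of members at least 2-fold higher, 7, was 4 against DroNc-seq.

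The Fib.1 share of fibrillar counts, 30.8%, was 22.3% with barcodes of at least 1000 UMIs, which left out 260 of 330 Fib.1 nuclei, 23.5% without the 43 Fib.1 barcodes above 3 times the label's median UMIs, and 27.9% without Col5a2. The fibrillar share in Fib.1, 34.4%, was 59.9% without Col18a1 and 64.8% with type IV genes alone. In endothelium, 9.52% became 6.79% with barcodes of at least 1000 UMIs, 16.8% without Col18a1 and 17.2% with type IV genes alone.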
